A study of Mus musculus with 6 samples.

Results

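The response to low oxygen and the breakdown of sugar were followed through 10 genes across the cells of the mouse brain vasculature: Hif1a, Epas1, Egln3, Pfkfb3, Pgk1, Ldha, Pdk1, Adm, Ankrd37 and Bnip3. They were taken by symbol, and all 10 were found among the 32287 genes of the single-cell count matrices. The samples were 6 male mice aged 12 months, 3 WT mice of genotype C57BL/6J and 3 mice of the Alzheimer model tg App ArcSwe, genotype AppArcSwe, which carry a transgene for amyloid precursor protein with the Arctic and Swedish mutations. The sources used here do not name the promoter of that transgene, whether WT mice were littermates, or a treatment given to either group. From 1 hemisphere per mouse, vessel fragments were pulled down with beads against CD31, an endothelial surface protein, split into single cells and read as 1 10x library per mouse. Mural cells and microglia in these libraries are therefore the cells that came along with CD31-positive fragments, not a sample of the whole brain.

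Cells sense oxygen through the hypoxia-inducible factors, of which Hif1a and Epas1 encode the oxygen-regulated subunits. With oxygen present, prolyl hydroxylases such as Egln3 mark these proteins for destruction, so that the factors are set mostly at the protein level, which RNA counts do not read. When the proteins persist they raise genes for glucose breakdown, lactate production, vessel dilation and the removal of mitochondria, and brain endothelium is known to draw much of its energy from glycolysis.

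The 6 libraries held 49059 cell barcodes and between 26436229 and 59161203 unique molecules (UMIs) per mouse, of which 44112 cells passed the filters. Of 48775 different barcodes, 283 occurred in more than 1 library. The cell classes stood on markers that did not include the 10 genes: arterial, capillary and venous endothelial cells, mural cells, made up of pericytes and smooth muscle cells, and microglia. None of the markers of a class was at 0 in it, with 7 endothelial markers at a summed 20870 to 24850 CPM (counts scaled to a fixed total per sum) in capillary cells and 7 smooth muscle markers at 30750 to 38380 CPM in mural cells. Mouse WT 3 stood apart. The summed level of 14 immediate early genes in its capillary cells was 14390 CPM against 27110 to 35840 in the other 5 mice. The median mitochondrial share of capillary cells was 1.58%, 1.70% and 2.66% in WT mice 1 to 3 and 2.27%, 2.76% and 2.89% in ArcSwe mice 1 to 3, so that WT 3 lay among the ArcSwe mice and the other WT mice below them. WT 3 was the lowest of the 6 mice for 7 of 9 of the studied genes tested in arterial cells, 5 of 9 in capillary cells, 4 of 9 in venous cells, 5 of 9 in mural cells and 5 of 8 in microglia. The part of handling, library or mouse in this was not tested, and differences in which WT 3 lay far below the other WT mice are also given without it.

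The stretches before the starts of 5 of the genes with genotype differences described below are shown. Pdk1, Hif1a and Ldha, which have such differences as well, are not shown, nor is a second RefSeq start of Pfkfb3. Whether the matches go with the genotype differences was not tested. Each line is the 250 bases before the RefSeq start in build GRCm38.p6, written 5′ to 3′ on the strand of the gene, and capitals mark ACGTG or GCGTG read on either strand, the core letters bound by the hypoxia-inducible factors. The stretches lie at chr2:11553930-11554179 on the minus strand for Pfkfb3, chr8:45999851-46000100 on the minus strand for Ankrd37, chr7:110627407-110627656 on the plus strand for Adm, chrX:106186850-106187099 on the plus strand for Pgk1 and chr12:54203875-54204124 on the minus strand for Egln3.
Pfkfb3: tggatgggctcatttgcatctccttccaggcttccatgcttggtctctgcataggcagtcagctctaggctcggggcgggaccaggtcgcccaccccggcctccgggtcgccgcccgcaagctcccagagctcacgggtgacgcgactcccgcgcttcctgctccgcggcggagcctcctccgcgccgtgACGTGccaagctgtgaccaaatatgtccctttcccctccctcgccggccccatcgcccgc
Ankrd37: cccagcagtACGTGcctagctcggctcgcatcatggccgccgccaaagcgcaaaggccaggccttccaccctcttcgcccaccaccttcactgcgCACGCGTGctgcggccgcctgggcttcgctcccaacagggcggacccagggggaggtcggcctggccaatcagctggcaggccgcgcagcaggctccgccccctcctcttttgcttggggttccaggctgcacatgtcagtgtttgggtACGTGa
Adm: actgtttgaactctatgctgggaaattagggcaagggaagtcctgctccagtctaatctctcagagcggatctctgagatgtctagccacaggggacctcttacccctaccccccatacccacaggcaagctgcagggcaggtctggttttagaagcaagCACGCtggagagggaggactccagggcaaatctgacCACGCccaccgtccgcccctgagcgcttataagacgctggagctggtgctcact
Pgk1: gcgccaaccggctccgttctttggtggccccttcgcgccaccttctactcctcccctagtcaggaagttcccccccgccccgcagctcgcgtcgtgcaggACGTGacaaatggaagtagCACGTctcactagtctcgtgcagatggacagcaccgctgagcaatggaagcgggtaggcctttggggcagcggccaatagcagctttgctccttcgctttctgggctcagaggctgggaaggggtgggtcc
Egln3: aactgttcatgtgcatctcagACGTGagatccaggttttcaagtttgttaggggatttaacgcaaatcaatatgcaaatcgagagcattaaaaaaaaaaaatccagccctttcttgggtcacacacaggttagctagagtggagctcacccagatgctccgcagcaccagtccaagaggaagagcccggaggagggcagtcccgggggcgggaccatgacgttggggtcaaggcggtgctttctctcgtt

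RefSeq windows of 300 bases, which add 50 bases after the start, were at hand for 9 of the 10 genes, as 12 windows. The core letters occurred in 11 of the 12 (91.7%), with a match for each of the 9 genes, whereas 43.8% of 32851 mouse promoter windows of the same length held a match, 19.6% for ACGTG and 32.4% for GCGTG. The palindrome CACGTG holds ACGTG on both strands and was counted at both of its positions. A match is a string of letters and not a measured binding site.

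**Figure D1:**
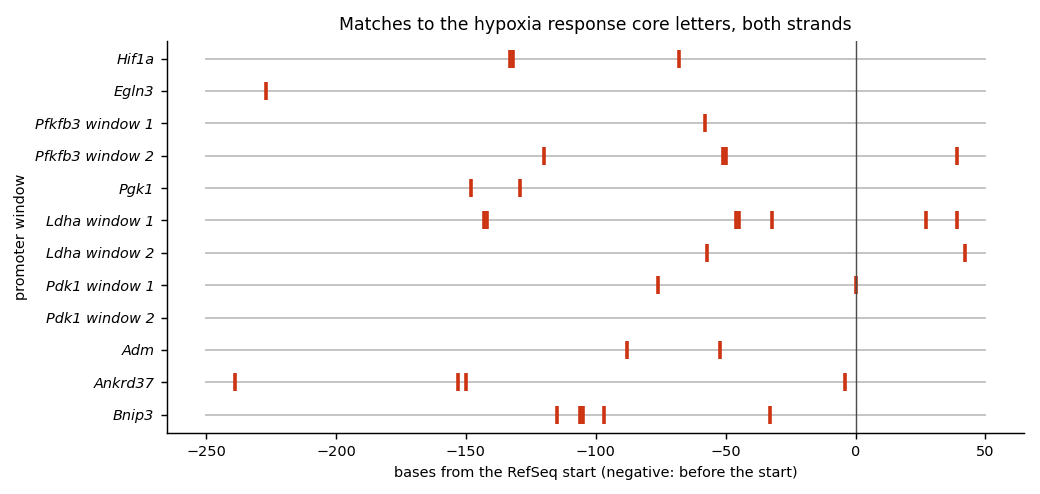
Matches to ACGTG or GCGTG on either strand (red ticks) in the 12 promoter windows, plotted in bases from the RefSeq start, with negative values before it. Only the second window of Pdk1 holds no match, and the windows of Ankrd37, Bnip3 and Ldha hold several each.

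The levels of the genes, taken over mice of both genotypes, differed between cell classes, and those patterns come first. A level is a CPM value: the sum of a gene's UMIs over the cells of a class in 1 mouse, as a share of all UMIs of that sum on the usual CPM scale, and adjusted by TMM, which sets the sums to a common composition. Means and SDs are over the 6 mice, 1 library each, the classes of a mouse share that library, and the order of classes was not tested.

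Epas1 (chr17:86753700-86833410, plus strand in GRCm38), the oxygen-regulated factor typical of endothelium, was highest in arterial endothelial cells at 2065 ± 144 CPM (SD, n = 6), with no mouse overlapping the next class. Capillary cells followed at 1174 ± 102 CPM, and venous cells at 982 ± 71.9, whose ranges overlapped those of capillary cells. Smooth muscle cells (849 ± 70.8 CPM) and pericytes (849 ± 85.2 CPM) could not be separated from each other. In microglia Epas1 stood at 35.7 ± 22.3 CPM, between 1.12% and 6.63% of the capillary level of the same mouse, while 7 endothelial markers stood at 0.518% to 3.69% there. The 2 mice with the highest Epas1 in microglia, WT 3 and ArcSwe 3, were also those with the most endothelial marker RNA in them. How much of the microglial Epas1 came with endothelial RNA was not tested.

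Hif1a (chr12:73901375-73947530, plus strand), the oxygen-regulated factor found in most cell types, was spread more evenly. It was highest in venous endothelial cells at 192 ± 18.1 CPM, followed by microglia at 161 ± 38.9, capillary cells at 145 ± 13.8, smooth muscle cells at 136 ± 23.9, pericytes at 115 ± 26.7 and arterial cells at 86.8 ± 12.4 CPM. Each class overlapped its neighbour in this order. Venous and arterial cells, the ends of the endothelial order for Hif1a, had separate ranges of 171 to 217 and 68.5 to 102 CPM. Along the endothelial zones Epas1 thus ran from artery down to vein, and Hif1a from vein down to artery.

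Egln3 (chr12:54178981-54203860, minus strand), the prolyl hydroxylase that is itself raised by low oxygen, was close to the limit of detection. Its 6 sums held 13 UMIs in arterial, 32 in capillary and 7 in venous endothelial cells, and its levels there averaged 0.415 to 0.544 CPM. The largest mean was in microglia at 5.94 ± 8.35 CPM, an SD above the mean because the mice differed strongly. In WT mice microglia had 0.66, 0.79 and 1.80 CPM, each below the 3.53, 3.27 and 1.945 CPM of smooth muscle cells. ArcSwe mice 1 to 3 had 8.59, 1.90 and 21.9 CPM in microglia. Egln3 passed the filter on low counts in no class when all cells of the class were used.

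Pfkfb3 (chr2:11471433-11554077, minus strand), which makes the strongest activator of phosphofructokinase and so sets the pace of glycolysis, was highest in microglia. Its level was 231 ± 46.1 CPM in microglia, and every mouse there exceeded every mouse of each other class. Venous (25.2 ± 8.58 CPM), arterial (22.9 ± 8.80), pericyte (17.6 ± 8.14), capillary (14.5 ± 4.39) and smooth muscle sums (9.14 ± 2.47) overlapped from one to the next. Within arteries Pfkfb3 ranged from 14.99 CPM in the subcluster led by Mannr and Vegfc to 50.3 CPM in that led by Fbln5 and Cytl1, over the pooled mice.

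Since microglial RNA can reach other droplets, the level of Pfkfb3 in vascular cells was set against that of 6 microglial markers not used to filter endothelial cells. Those markers stood in capillary cells at 0.896% to 4.65% of their microglial level, and Pfkfb3 at 3.64% to 8.04% of its own, higher than the markers in each of the 6 mice. In arterial cells the markers stood at 0.788% to 3.44% and Pfkfb3 at 7.16% to 15.1%. In mural cells the corresponding shares were 0.851% to 3.82% and 2.29% to 5.81%, the closest of the vascular classes.

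Pdk1 (chr2:71873224-71903858, plus strand), the kinase that shuts pyruvate out of mitochondria, was also highest in microglia, at 42.4 ± 6.39 CPM with no overlap. Venous (19.1 ± 4.20 CPM), capillary (19.0 ± 6.65), pericyte (16.2 ± 11.4) and arterial sums (14.6 ± 1.26) followed with overlapping ranges, and smooth muscle cells were lowest at 8.36 ± 2.01 CPM. Pgk1 (chrX:106187100-106203699, plus strand), a core enzyme of the lower part of glycolysis, was the most even of the 10 genes. Its class means lay within 1.55-fold, from 54.3 ± 16.7 CPM in microglia to 84.4 ± 3.95 CPM in smooth muscle cells.

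Ldha (chr7:46841475-46855627, plus strand), which turns pyruvate into lactate, was highest in venous endothelial cells at 434 ± 44.6 CPM, with capillary (406 ± 60.9), arterial (350 ± 61.0), pericyte (286 ± 81.9) and smooth muscle cells (259 ± 29.1) overlapping step by step. Microglia were lowest at 105 ± 27.8 CPM and below all smooth muscle sums. In the microglial clusters with a low ribosomal share, described below, Ldha stood at 38.6 to 96.5 CPM. In the other microglia it stood at 116.6 to 210.1 CPM, and ArcSwe 2, the highest, exceeded the lowest smooth muscle sum of 208.8 CPM. Pgk1 and Bnip3 were likewise lower in the low-ribosomal than in the other microglia of every mouse.

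Adm (chr7:110627661-110629820, plus strand), the vasodilator peptide adrenomedullin, and Ankrd37 (chr8:45996902-46005707, minus strand), an ankyrin repeat protein long known as a hypoxia-induced transcript, had their highest means in capillary and venous endothelium. Adm stood at 57.5 ± 14.3 CPM in capillary, 40.9 ± 12.5 CPM in venous cells and 37.8 ± 22.2 CPM in pericytes, each overlapping the next. Pericytes spread from 12.2 to 72.7 CPM, the highest single value, on 57 UMIs in all. Adm stood at 19.9 ± 4.83 CPM in arterial cells, against 3.57 ± 2.29 in smooth muscle cells and 1.74 ± 1.35 in microglia. Ankrd37 stood at 136 ± 44.2 CPM in capillary and 114 ± 41.9 CPM in venous cells. Arterial cells, at 39.7 ± 9.51 CPM, did not overlap the next class below. Within arteries Ankrd37 went from 76.6 CPM in the subcluster led by S100a6 and Ccn3 down to 4.68 CPM in the Fbln5 and Cytl1 subcluster, the one in which Pfkfb3 was highest.

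Among the 7 capillary subclusters, built without the 10 genes, Adm was 115 CPM in the one led by Dusp6 and Jun and 35.3 to 63.9 CPM in the others. Ankrd37 ranged from 71.7 to 200 CPM among the same subclusters. Dusp6 and Jun are genes of the immediate early response, which tissue digestion is known to raise. The subcluster led by Apold1 and Egr3 had more Fos, another such gene, at 8065 against 6558 CPM. It had less Jun, at 7003 against 9520 CPM, and Adm at 43.5 CPM. The part of that response in the level of Adm was not tested.

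Bnip3 (chr7:138890836-138909519, minus strand), a receptor that sends mitochondria to autophagy, was highest in capillary (70.5 ± 14.95 CPM) and arterial cells (65.9 ± 17.5), whose ranges overlapped, and lower in venous cells (39.9 ± 7.40). Pericytes (19.9 ± 11.0 CPM), smooth muscle cells (19.8 ± 4.82) and microglia (18.4 ± 5.65) did not differ beyond their spread.

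**Figure D2:**
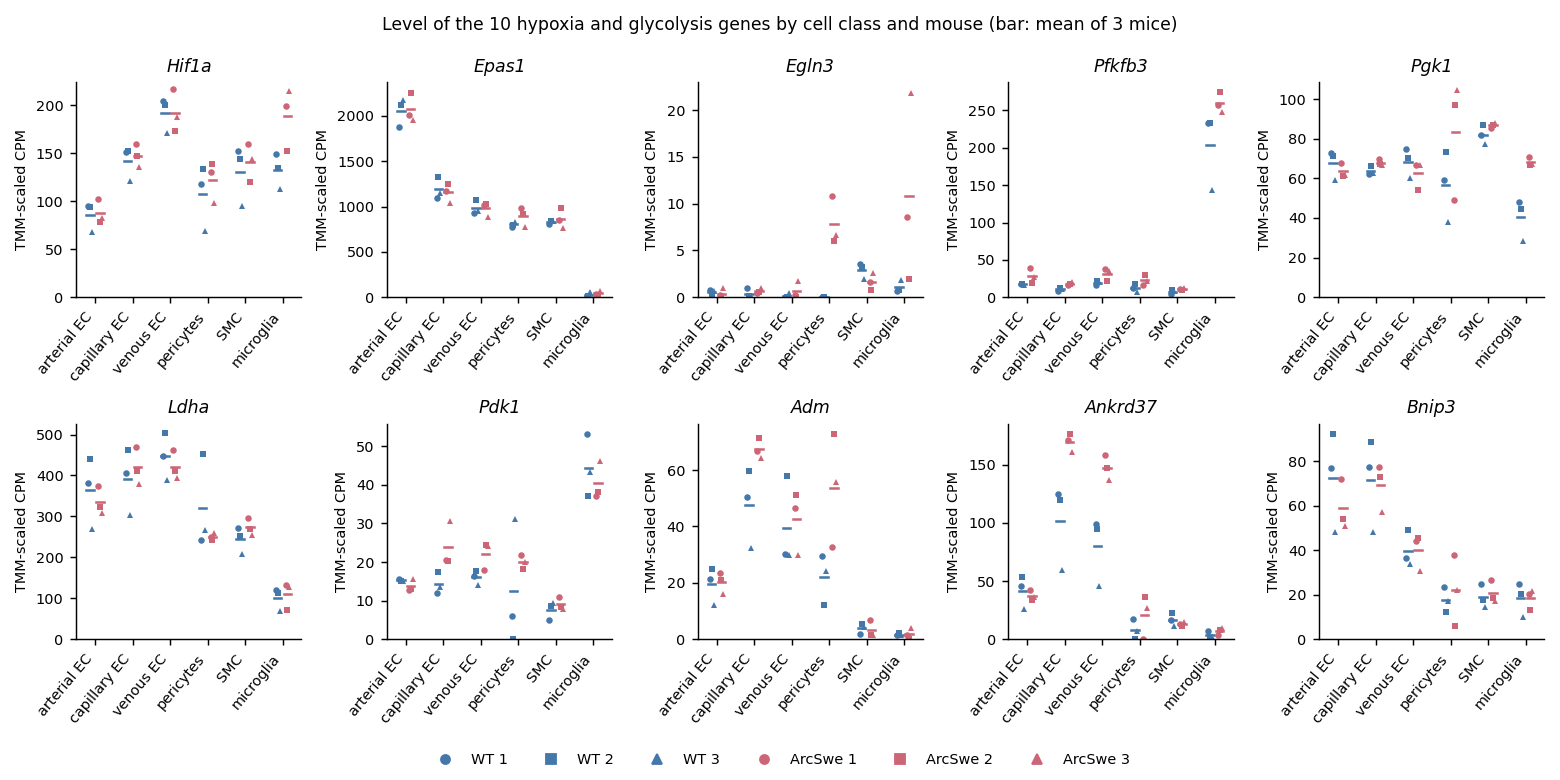
TMM-scaled CPM (y axis) of each of the 10 genes in 6 cell classes (x axis), 1 point per mouse, with bars for the mean of the 3 WT (blue) and 3 ArcSwe mice (red); EC stands for endothelial cells and SMC for smooth muscle cells. Epas1 falls from artery to vein and is near 0 in microglia, Pfkfb3 is high in microglia, and Ankrd37 and Adm are high in capillary and venous cells, Adm also in pericytes of some mice.

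The comparison of genotypes asked whether these genes differ between ArcSwe and WT mice in each class. In none of the 5 classes did one of the 10 genes pass an adjusted p of 0.05 by edgeR's quasi-likelihood test on the sums, with 3 mice against 3. Those tested were 9 in each vascular class and 8 in microglia. Few or no genes were called at all: 0% of 11186 genes were called in arterial, 0% of 12512 in capillary, 0% of 10169 in venous and 0% of 10848 in mural cells, and 0.13% of 10744 in microglia. At an unadjusted p under 0.05, 1, 4, 2, 1 and 2 of the 10 genes were higher in ArcSwe mice in arterial, capillary, venous, mural cells and microglia, and 0 were lower in any. The shares of all genes higher at that level were 2.2%, 2.73%, 1.93%, 2.17% and 6.81%, and the shares lower 1.86%, 1.89%, 1.5%, 1.87% and 3.36%. DESeq2 called 0 of the 10 in the 4 vascular classes and 1, Egln3, in microglia. The p-values measure the spread between the mice as labelled, since the sources do not say how cages or preparation days were shared.

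Capillary endothelial cells had the most genes with separate genotypes. All 3 ArcSwe mice exceeded all 3 WT mice for 5 of the 9 tested genes, Pfkfb3, Pdk1, Ankrd37, Adm and Pgk1, where 5.48% of all 12512 genes did so. The mitochondrial share of these cells, given above, was also higher in every ArcSwe mouse than in WT 1 and WT 2, though not than in WT 3, and its part in the differences was not tested. The median log2 fold change of the 9 was 0.11, against 0.00 over all genes.

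Pfkfb3 in capillary cells stood at 8.49, 12.4 and 11.5 CPM in WT mice 1 to 3 and at 16.8, 18.1 and 19.8 CPM in ArcSwe mice 1 to 3. The groups did not overlap, and WT 2 and ArcSwe 1, the closest pair, held 114 and 184 UMIs. The log2 fold change was 0.76 ± 0.16 (SE), and the edgeR adjusted p was 0.801. The summed level of 8 microglial markers in capillary cells, 2 of them at 0 by the filter on cells, was 159, 190 and 503 CPM in WT and 350, 243 and 684 CPM in ArcSwe mice, and its part in this difference was not tested.

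Pdk1 followed the same direction in capillary cells, with 12.0, 17.3 and 13.5 CPM in WT mice and 20.4, 20.4 and 30.6 CPM in ArcSwe mice. ArcSwe 3 was far above the rest, and the other 5 mice formed a narrower range with WT lower. The log2 fold change was 0.75 ± 0.21 (edgeR adjusted p = 0.888).

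Ankrd37 in capillary cells stood at 125, 120 and 59.3 CPM in WT mice and 172, 176 and 161 CPM in ArcSwe mice. The ArcSwe mice lay close together, whereas WT 3 had less than any other mouse. The log2 fold change was 0.74 ± 0.24 (edgeR adjusted p = 0.943) and 0.47 without WT 3.

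Adm in capillary cells stood at 50.6, 59.8 and 32.3 CPM in WT mice and at 66.8, 71.4 and 64.4 CPM in ArcSwe mice. Again WT 3 was the lowest and the distance between WT 2 and ArcSwe 3 was small. The log2 fold change was 0.50 ± 0.19 (edgeR adjusted p = 0.943), and 0.29 without WT 3. Without the capillary subclusters led by immediate early genes, a setting added after the data were seen, the log2 fold changes were 0.81 for Ankrd37, 0.64 for Adm, 0.81 for Pfkfb3 and 0.74 for Pdk1.

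Pgk1 in capillary cells was 62.2, 66.3 and 62.6 CPM in WT and 69.6, 67.2 and 66.9 CPM in ArcSwe mice. The groups touched without overlapping, with a log2 fold change of 0.09 ± 0.08 (edgeR adjusted p = 0.943). Hif1a, Epas1, Ldha and Bnip3 overlapped between genotypes in capillary cells, with log2 fold changes between −0.05 and 0.11. The factor genes themselves thus showed no difference beyond the spread of the mice there.

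**Figure D3:**
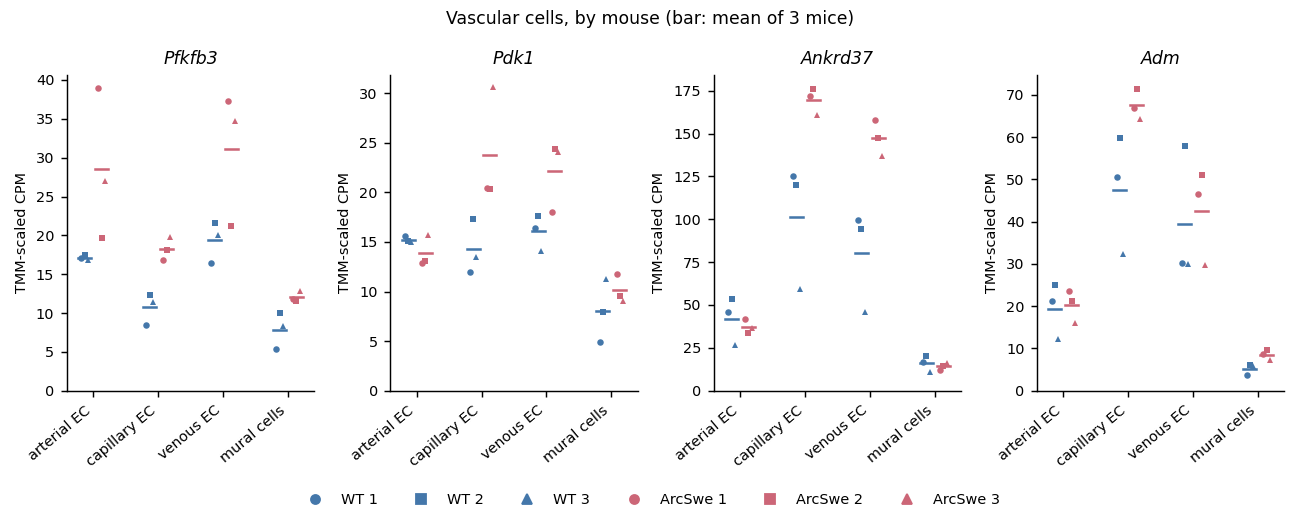
TMM-scaled CPM (y axis) of Pfkfb3, Pdk1, Ankrd37 and Adm in 4 vascular classes, 1 point per mouse and a bar for the mean of 3 mice; WT is blue and ArcSwe red. In capillary cells each gene has all ArcSwe points above all WT points, and WT 3 (blue triangle) is the lowest for Ankrd37 and Adm.

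In arterial endothelial cells Pfkfb3 was the 1 gene of the 9 whose genotypes did not overlap, where 4.4% of all genes lay higher in this way. It stood at 17.1, 17.5 and 16.8 CPM in WT mice and at 39.0, 19.6 and 27.0 CPM in ArcSwe mice. The WT mice were nearly equal, while the ArcSwe mice spread widely and ArcSwe 2 came near the WT range from 39 UMIs. The log2 fold change was 0.78 ± 0.22, with an edgeR adjusted p rounding to 1.00, and 0.49 without ArcSwe 1. The median over the 9 genes was −0.08, against −0.01 over all genes, and Ankrd37 and Pdk1 had log2 fold changes of −0.14 and −0.12.

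In venous endothelial cells Ankrd37 stood at 99.5, 94.6 and 46.2 CPM in WT mice and 158, 147 and 137 CPM in ArcSwe mice. The picture was that of the capillaries, with separate genotypes and WT 3 lowest. Its log2 fold change was 0.90 ± 0.24, again with an adjusted p rounding to 1.00, and 0.62 without WT 3. Pdk1 also did not overlap there, with 16.4, 17.6 and 14.1 CPM in WT and 18.1, 24.4 and 24.1 CPM in ArcSwe mice (log2 fold change 0.45 ± 0.21, and 0.25 with the endothelial cells that held a microglial UMI kept). Of all genes, 3.86% lay higher without overlap in venous cells. Venous Pfkfb3 had a log2 fold change of 0.74 ± 0.22, but ArcSwe 2, at 21.2 CPM from 27 UMIs, fell among the WT values of 16.4, 21.6 and 20.1 CPM. The venous median was 0.02, against −0.01 over all genes.

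In mural cells Pfkfb3 and Adm did not overlap between genotypes, where 5.15% of all genes lay higher in this way. Pfkfb3 stood at 5.34, 9.98 and 8.30 CPM in WT and at 11.8, 11.6 and 12.8 CPM in ArcSwe mice, from 13 to 55 UMIs per mouse, with a log2 fold change of 0.61 ± 0.27. Adm stood at 3.70, 5.99 and 5.93 CPM in WT and at 8.72, 9.51 and 7.22 CPM in ArcSwe mice, from 9 to 31 UMIs, with a log2 fold change of 0.65 ± 0.32. Both adjusted p-values by edgeR rounded to 1.00. Without WT 1 the log2 fold change of Pfkfb3 was 0.40. That of Adm was 0.24 with a stricter cell filter (at least 1000 genes and under 5% mitochondrial UMIs) and 0.37 at a clustering resolution of 2. In pericytes Adm stood at 29.5, 12.2 and 24.3 CPM in WT and at 32.6, 72.7 and 55.6 CPM in ArcSwe mice, from 2 to 25 UMIs, whereas in smooth muscle cells it stood at 1.76, 5.46 and 4.22 CPM and at 6.86, 1.54 and 1.57 CPM. The Adm values did not overlap in pericytes, where WT 1 and ArcSwe 1, the closest pair, held 5 and 6 UMIs. For pericytes alone the share of all genes that separated was not counted. In smooth muscle cells the Adm values of the genotypes overlapped. Pfkfb3 overlapped in both. In pericytes it stood at 11.8, 18.3 and 6.95 CPM in WT and at 16.3, 30.3 and 22.2 CPM in ArcSwe mice, from 2 to 10 UMIs. In smooth muscle cells it stood at 4.85, 9.27 and 8.43 CPM and at 11.3, 9.22 and 11.8 CPM. The 7 pericyte markers, all detected, summed to 4312 to 4588 CPM in mural cells of WT and 4735 to 6279 CPM in those of ArcSwe mice, also without overlap. The part of pericytes in the mural Adm and Pfkfb3 differences was not tested. The median over the 9 genes was 0.12, against −0.00 over all genes.

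Pfkfb3 thus had a positive log2 fold change in all 4 vascular classes, between 0.61 and 0.78 with all 6 mice. The classes of a mouse share its library, so these are not separate repeats. The summed microglial markers in arterial cells were 140, 172 and 382 CPM in WT and 254, 252 and 506 CPM in ArcSwe mice. In venous cells they were 149, 166 and 384 CPM and 265, 211 and 454 CPM. In mural cells they were 172, 171 and 506.5 CPM and 298, 198 and 651 CPM. Their part in the Pfkfb3 differences was not tested. The tests of whether the genotype effect of a class differed from that in capillary cells, made in 1 fit over all classes, called 0 of the 10 genes for arterial, venous or mural cells. The background was 0% of 13523 genes in each, with 1.55%, 1.91% and 3.64% at an unadjusted p under 0.05. The smallest unadjusted p for arterial cells was that of Ankrd37, whose effect was lower in arterial than in capillary cells by −0.88 ± 0.21 (log2, SE), and it also had the smallest for mural cells, at −0.88 ± 0.28, both with an edgeR adjusted p of 1. The sparse Egln3 had larger differences, −1.11 for arterial, 1.42 for venous and −0.91 for mural cells, with unadjusted edgeR p-values of 0.308, 0.355 and 0.279.

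**Figure D4:**
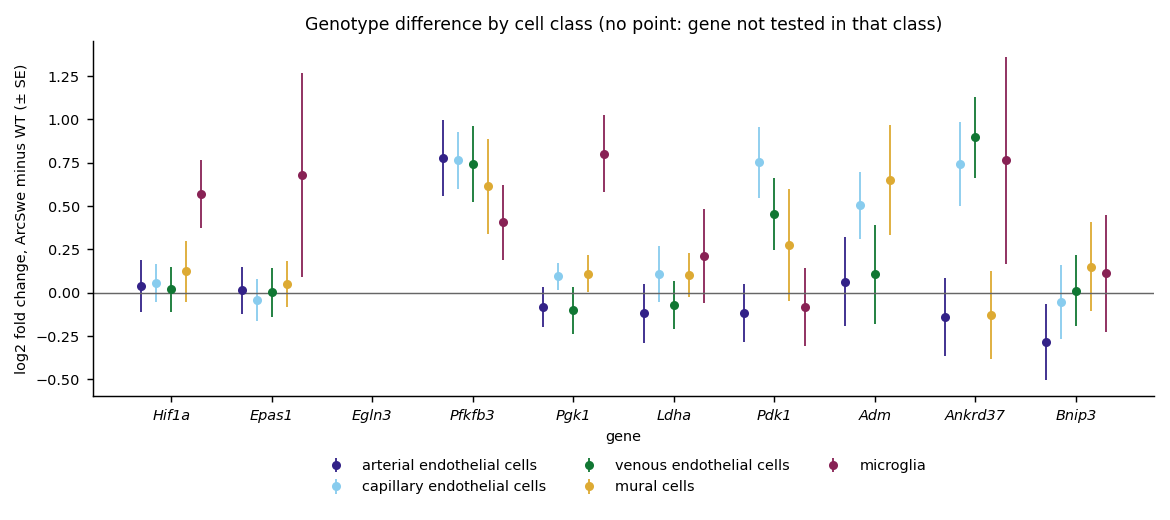
Log2 fold change of ArcSwe over WT mice with its SE (y axis) for each gene (x axis) in 5 cell classes; a gene without a point was not tested in that class. Pfkfb3 lies above 0 in all 5 classes, Ankrd37 in capillary and venous cells and microglia, and Hif1a and Pgk1 lie farthest from 0 in microglia.

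Genes around the 10 were counted from lists of the same pathways, also chosen with earlier results of these data known. None of them passed the adjusted threshold in the vascular classes. In capillary cells 15 of 25 tested hypoxia target genes outside the 10 had a positive log2 fold change (median 0.04), 2 of them higher and 0 lower at an unadjusted p under 0.05. They included Angptl4, a lipoprotein lipase inhibitor, with a log2 fold change of 0.68 ± 0.19.

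Of 13 other glycolysis genes in capillary cells, 11 had a positive log2 fold change, with a median of 0.11. Eno1, the enolase, was the 1 with an unadjusted p under 0.05 (0.41 ± 0.15), and its genotypes overlapped. The lactate carrier Slc16a1 stood at 301, 344 and 362 CPM in WT and 513, 523 and 379 CPM in ArcSwe mice, with ArcSwe 3 close to WT 3 (0.49 ± 0.14, edgeR adjusted p = 0.943). The other 6 tested genes of the factor pathway itself, among them Arnt, Egln1 and Vhl, had log2 fold changes below 0 in capillary cells, with a median of −0.09 and 0 at an unadjusted p under 0.05. In the other vascular classes the hypoxia targets were positive in 9 of 23 (arterial, median −0.04), 9 of 20 (venous, −0.07) and 9 of 26 (mural, −0.06). The glycolysis genes were positive in 9 of 12 (0.06), 8 of 11 (0.09) and 9 of 14 (0.07) of the same classes.

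Around adrenomedullin, its receptor partner Ramp3 was lower and its scavenger receptor Ackr3 higher in ArcSwe mice in the 3 endothelial zones. Ramp3 had log2 fold changes of −0.60 ± 0.24 in arterial, −0.26 ± 0.10 in capillary and −0.61 ± 0.21 in venous cells, without overlap in any of them, and Ackr3 had 0.34 ± 0.12, 0.35 ± 0.15 and 0.34 ± 0.14, overlapping in capillary cells. None passed the adjusted threshold. In arterial cells P4ha1, a collagen prolyl hydroxylase (−0.52 ± 0.22), and Pink1, a mitophagy kinase (0.25 ± 0.11), were the others named by their unadjusted p. In mural cells Vegfa, the vascular growth factor, stood at 12.7, 14.5 and 9.78 CPM in WT and at 7.96, 7.47 and 7.45 CPM in ArcSwe mice, the opposite direction to Adm and Pfkfb3 (−0.68 ± 0.25). The heat shock genes Hspa1b (0.62 ± 0.23) and Hspa1a (0.43 ± 0.19) of the immediate early list were higher in mural cells with overlapping genotypes, and neither passed the adjusted threshold.

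Microglia differed from the vascular cells in make-up between mice, which has to be read before their values. Of 4 microglial clusters, 2 had a median ribosomal share under 3% and few UMIs per cell, at 0.34 and 0.353 of their samples' medians, just above the limit of 0.333 for leaving a cluster unnamed. They held 27.0%, 32.8% and 95.0% of the microglia of WT mice 1 to 3 and 71.6%, 94.0% and 81.4% of those of ArcSwe mice 1 to 3. The cells of WT 1 and WT 2 came mostly from cluster 10, led by Rgs10 and Cx3cr1, those of WT 3 mostly from low-ribosomal cluster 11, and those of the ArcSwe mice mostly from low-ribosomal cluster 5. Outside the low-ribosomal clusters WT 3 had 69 cells and ArcSwe 2 had 13. The 8 microglial markers were all detected, at a summed 14050 to 21620 CPM in WT and 13890 to 16830 CPM in ArcSwe mice. The 5 erythroid genes summed to 35.4 to 834 CPM in WT and 34.2 to 1294 CPM in ArcSwe mice, and the immediate early genes to 10870 to 55290 and 21500 to 37870 CPM, and the part of these in the microglial results was not tested.

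With all microglia, Pgk1 stood at 48.0, 44.7 and 28.4 CPM in WT and at 70.7, 66.6 and 67.4 CPM in ArcSwe mice. The ArcSwe mice were nearly equal and all above the WT mice, of which WT 3 was lowest. The log2 fold change was 0.80 ± 0.22 (edgeR adjusted p = 0.239), and 0.66 without WT 3 (edgeR adjusted p = 0.0344). Hif1a stood at 150, 135 and 113 CPM in WT and 200, 152 and 215 CPM in ArcSwe mice, with ArcSwe 2 only just above WT 1 (0.57 ± 0.20, edgeR adjusted p = 0.362). Pfkfb3 did not overlap either, at 234, 233 and 143 CPM in WT and 258, 274 and 248 CPM in ArcSwe mice, but the step from WT 1 to ArcSwe 3 was small beside the gap to WT 3 (0.41 ± 0.21, edgeR adjusted p = 0.553). Without WT 3 it was 0.25. Of all genes, 8.23% lay higher without overlap in microglia, against these 3 of the 8 tested genes. The median log2 fold change of the 8 was 0.49, against −0.05 over all genes.

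Egln3 was too sparse in all microglia for the edgeR filter, with 3, 3 and 4 UMIs in WT mice and 22, 1 and 64 UMIs in ArcSwe mice, or 0.66, 0.79 and 1.80 CPM against 8.59, 1.90 and 21.9 CPM. ArcSwe 1 and 3 were well above all others, and ArcSwe 2 rested on 1 UMI. DESeq2, which filters on its own, gave a log2 fold change of 3.53 ± 0.86 with an adjusted p of 0.00626, where it called 0.864% of 19324 genes. Of the 97 Egln3 UMIs in microglia, 84 lay in cluster 18, led by Cxcl10, Cst7 and Tnf and holding 513 cells, of which ArcSwe mice 1 to 3 gave 126, 6 and 350 and WT mice 7, 5 and 19. Over the pooled mice Egln3 was 35.3 CPM in that cluster and 0.55 CPM in cluster 10, and Pgk1 was 136 and 44.6 CPM. Hif1a was 316 and 133 CPM and Ldha 219 and 111 CPM, whereas Pfkfb3 was much the same at 206 and 215 CPM. Within that cluster Pgk1 stood at 325, 157 and 180 CPM in the few WT cells and at 128, 419 and 118 CPM in ArcSwe mice, so that the genotypes overlapped.

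Without the low-ribosomal clusters, edgeR called 4.66% of 9456 genes, 4.47% higher and 0.19% lower in ArcSwe mice, and 3 of the 10 genes, Pgk1, Egln3 and Epas1, rose. Pgk1 stood at 48.4, 46.7 and 68.1 CPM in WT and at 97.3, 265 and 119 CPM in ArcSwe mice, without overlap, as 10.2% of all genes lay higher there, and with the highest value in the mouse with 13 cells. Its log2 fold change was 1.44 ± 0.32 (edgeR adjusted p = 0.0292). Egln3 stood at 0.71, 0.59 and 5.24 CPM in WT and 13.5, 9.14 and 44.6 CPM in ArcSwe mice, again without overlap. ArcSwe 2 held 1 UMI there, whereas WT 3 held 1 each in clusters 10 and 18, so the separation of these 2 mice is not reliable. The fitted log2 fold change was 4.92 ± 0.72 (edgeR adjusted p = 0.00354) and rests on 89 UMIs.

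Epas1 in these cells stood at 11.8, 12.6 and 23.6 CPM in WT and at 26.5, 9.14 and 55.2 CPM in ArcSwe mice. The genotypes overlapped, since ArcSwe 2 was lowest, and the log2 fold change was 1.61 ± 0.39 (edgeR adjusted p = 0.0432). Over all microglial clusters the 7 endothelial markers stood at 0.518%, 0.626% and 1.78% of their capillary level in WT and at 1.28%, 0.972% and 3.69% in ArcSwe mice, and their part in the Epas1 result was not tested. Hif1a (0.91 ± 0.24, edgeR adjusted p = 0.0530) and Ldha (0.74 ± 0.19, edgeR adjusted p = 0.0544) came just short of the threshold, although neither overlapped. Ldha stood at 119, 117 and 136 CPM in WT and at 185, 210 and 196 CPM in ArcSwe mice. Pfkfb3 had a log2 fold change of 0.20 ± 0.25, with overlapping genotypes.

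When WT 3 and ArcSwe 2, with under 100 such cells each, were also left out, a choice made after the data were seen, 5 of the 10 genes passed with 2 mice a group. They were Pgk1 (1.27), Egln3 (5.44), Hif1a (1.13), Ldha (0.78) and Epas1 (1.81 on the log2 scale), where 6.46% of 10429 genes were called. With all microglia but without WT 3 alone, Pgk1, Egln3 and Epas1 passed, where 9.58% of genes were called. In the low-ribosomal cells themselves Pgk1 was 15.4 to 28.5 CPM over the 6 mice and Hif1a 112 to 152 CPM, with overlapping genotypes in both. Pfkfb3 there was 235, 218 and 163 CPM in WT and 321, 324 and 271 CPM in ArcSwe mice, without overlap. The share of all genes separate in these cells was not counted. In low-ribosomal cluster 5 alone it stood at 231.5, 222 and 316 CPM in WT and at 319, 320 and 264 CPM in ArcSwe mice. The genotypes overlapped there, with WT 3 at 70 cells. In the other clusters Pfkfb3 overlapped as well.

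**Figure D5:**
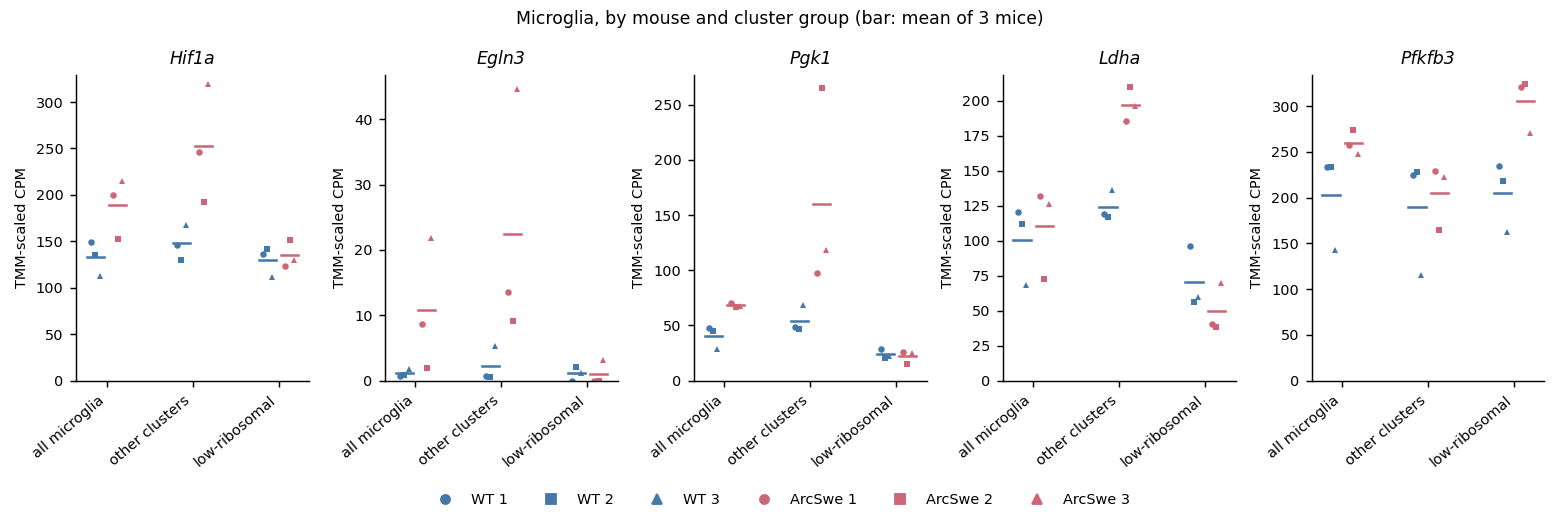
TMM-scaled CPM (y axis) of Hif1a, Egln3, Pgk1, Ldha and Pfkfb3 in all microglia, in the clusters other than the low-ribosomal ones and in the low-ribosomal ones, 1 point per mouse and a bar for the mean of 3 mice; WT is blue and ArcSwe red. The distance between genotypes for Pgk1, Ldha, Hif1a and Egln3 lies in the other clusters, and that for Pfkfb3 in the low-ribosomal ones.

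Other genes of glycolysis stood with Pgk1 in the microglia outside the low-ribosomal clusters. Of 12 tested, 4 rose and 0 fell, where 4.47% of all genes rose and 0.19% fell. The median log2 fold change was 0.52 against −0.02 over all genes. Gapdh, the glyceraldehyde-3-phosphate dehydrogenase, stood at 466, 447 and 377 CPM in WT and at 834, 1343 and 910 CPM in ArcSwe mice (1.30 ± 0.23, edgeR adjusted p = 0.00962). The others were the isomerases Tpi1 (1.35 ± 0.26) and Gpi1 (1.11 ± 0.24) and the enolase Eno1 (0.92 ± 0.18), none of them overlapping between genotypes. Among 8 transport genes the lactate exporter Slc16a3 was called, at 26.2, 27.9 and 31.4 CPM in WT and 63.4, 100 and 96.9 CPM in ArcSwe mice (1.66 ± 0.24). Cluster 10 held 720, 577 and 50 of these cells in WT and 160, 7 and 26 in ArcSwe mice. Cluster 18 held 7, 5 and 19 in WT and 126, 6 and 350 in ArcSwe mice. Within cluster 10 Pgk1 stood at 43.35, 43.48 and 45.56 CPM in WT and at 55.49, 49.99 and 40.11 CPM in ArcSwe mice. The part of this make-up in the differences was not tested.

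Among 17 tested hypoxia target genes outside the 10, 3 were called higher and 0 lower in the same cells, with a median of 0.15. The share of all genes called higher, 4.47%, and the make-up by cluster given above hold here as well. The called genes included the transcriptional repressor Bhlhe40 (3.19 ± 0.55) and Rbpj, the DNA-binding factor of Notch signalling (1.03 ± 0.25). Ramp1, a receptor partner for peptides of the calcitonin and adrenomedullin family, went from 27.4, 27.6 and 10.5 CPM in WT to 152, 183 and 194 CPM in ArcSwe mice (2.88 ± 0.24, edgeR adjusted p = 0.000435). Of 6 tested genes of the factor pathway, 9 of pyruvate entry and 7 of mitophagy, 0 were called. The 14 immediate early genes were lower in 11 cases, with 0 called.

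With all microglia none of these lists had a gene past the threshold. Ramp1 (1.96 ± 0.37), Slc16a3 (0.95 ± 0.20) and Bhlhe40 (2.31 ± 0.50) were among the closest, with edgeR adjusted p-values of 0.0975, 0.134 and 0.135, and none of the 3 overlapped between genotypes. Tpi1, Gpi1 and Pkm were higher at an unadjusted p under 0.05 with overlapping genotypes. In the factor pathway Vhl, part of the ligase that destroys the factors, was lower (−0.59 ± 0.24) and Hif1an, their asparagine hydroxylase, higher (0.63 ± 0.26), neither past the adjusted threshold. The same held for Rbpj (0.76 ± 0.21), for the hexose carrier Slc2a6 (2.17 ± 0.59) and for the glucocorticoid-responsive genes Zbtb16 (1.16 ± 0.37) and Klf9 (0.72 ± 0.25), each higher without overlap.

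The genotype effect in microglia was last compared with that in capillary cells in the fit over all classes. For all microglia 2 of the 10 genes differed, where 4.19% of 13523 genes did. The Pgk1 effect was larger in microglia by 0.70 ± 0.14 (edgeR adjusted p = 0.00507), and the Pdk1 effect was smaller by −0.83 ± 0.24 (edgeR adjusted p = 0.0497), since capillary Pdk1 was higher in ArcSwe mice and microglial Pdk1 was not. Without the low-ribosomal clusters Pgk1 (1.22), Egln3 (4.14), Hif1a (0.96), Ldha (0.64) and Epas1 (1.67) differed, where 9.56% of genes did, and the difference for Pdk1 was −0.57 with an edgeR adjusted p of 0.179. Over 8 alternatives with all microglia, the adjusted p went from 0.00122 to 0.144 for Pgk1 and from 0.00573 to 0.372 for Pdk1, and leaving out ArcSwe 3 gave the highest of both.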

How the data were processed

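The authors made the count matrices with Cell Ranger 7.0.0 against mm10 with mouse Clec7a and human NOTCH3 added, per the methods of the study. The deposited values are unscaled UMI counts, 1 matrix per mouse, with 0 columns that match no sample. Cells with 500 to 4500 genes and under 10% mitochondrial UMIs were kept, as the study did. Clusters (Leiden, resolution 1, 30 components of 2000 genes) were named from markers. The 10 genes and all lists were kept out of clustering. Clusters with markers of 2 classes stayed unnamed (3695 unnamed cells in all), 5320 of 29179 endothelial cells with a Cx3cr1 or Aif1 UMI and 1325 without a zone were left out, and no doublet caller was run. Smooth muscle cells and pericytes were summed as mural cells for the tests.

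Raw counts were summed per mouse and class. Before the tests 2902 ribosomal, mitochondrial, pseudogene and Rik genes were left out, as the study did. Genotypes were compared with edgeR 4.0.16 (TMM, filterByExpr, quasi-likelihood test, R 4.3.3). The p-values were adjusted by Benjamini-Hochberg across every gene tested, and the threshold was 0.05. DESeq2 1.42.0 was an alternative, with others in the closing section. A joint fit over all classes compared effects with those in capillary cells. In simulated counts with 200 genes changed by a log2 fold change of 1, the fit recovered 151 in arterial, 141 in capillary, 135 in venous and 126 in mural cells but 1 in microglia, where 163 were found once the simulated log2 change was 2.

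The 10 genes and the pathway lists were chosen with earlier results of these data known. A log2 fold change with its error is given for a studied gene where it reached 2 standard errors or the genotypes did not overlap. From each list every gene past the threshold is named, or else up to 3 with the smallest unadjusted p under 0.05. Some genes that these rules select are counted but not reported here by name. Clusters described for a gene were chosen after their values were seen. Gene positions are from GENCODE vM21 (GRCm38), promoters from RefSeq.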

Additional observations from a re-analysis of the deposited data

Results flagged for a closer look

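For Pgk1 the difference between ArcSwe and WT mice was not the same in microglia and in capillary endothelial cells, by a test of the difference itself: the log2 fold changes differed by 0.70, with an edgeR adjusted p of 0.00507. For Pdk1 they differed by −0.83 in the opposite direction (edgeR adjusted p = 0.0497). Neither call held throughout. Over 8 alternatives the edgeR adjusted p reached 0.144 for Pgk1 and 0.372 for Pdk1, and without the low-ribosomal clusters it was 0.179 for Pdk1. Both were tested on sums of the same 6 mice, and in microglia the genotypes drew on different clusters, whose part in these differences was not tested.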

How the results depend on the processing

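None of the 14 log2 fold changes of the studied genes tried under alternatives was called at first, so none could lose a call. Over 202 alternatives 6 gained a call, 196 stayed uncalled and 0 turned direction. The fold change became over 1.5 times smaller in 12 and larger in 5, over 10 of the 14. These include mural Adm, 0.24 with the stricter cell filter, microglial Pfkfb3, 0.08 without the low-ribosomal clusters, WT 3 and ArcSwe 2, and capillary Pgk1, 0.03 at a clustering resolution of 2. Without the filter on low counts edgeR called 117 genes in arterial, 72 in venous and 93 in mural cells and 242 in microglia, and 1 of the 10 in arterial cells (Pfkfb3, adjusted p = 0.00467), 1 in venous cells (Ankrd37, 1.4e-05) and 1 in microglia (Egln3). The cause was not tested. DESeq2 called 11 genes in arterial cells, 14 in capillary cells and 167 in microglia, 1 of them among the 10. RLE normalization and the stricter cell filter gave 35 and 34 genes in microglia. Leaving out 1 mouse at a time gave 2 to 1061 genes and 0 to 3 of the 10 in microglia. The highest counts came without WT 3, and 55 genes came without ArcSwe 2. Without the low-ribosomal clusters 441 genes and 3 of the 10 were called, and 674 and 5 when WT 3 and ArcSwe 2 were also left out. Of the differences between microglia and capillary cells, 0 to 6 of the 10 were called with 1 mouse left out, 3 under RLE normalization, 4 without the filter and 5 without the low-ribosomal clusters.

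Mice of the 2 groups share replicate numbers, but no source says that a number pairs mice. Same-numbered mice had correlations of their deviations over 0.1 in all 3 pairs in venous cells only, where 6 of 6 mice correlated best with their own number, and the lowest was −0.12 in microglia. The replicate block gave 6 genes in arterial cells, 35 in microglia and 0 in the other classes, and 0 of the 10 in any.

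Pfkfb3 rested on 39 to 185 UMIs per mouse in arterial, 27 to 128 in venous and 13 to 55 in mural cells. With such counts, 3 mice a group and 13 microglia of ArcSwe 2 outside the low-ribosomal clusters, small differences were not detectable.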

Other observations

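The genes whose levels were most like those of the studied genes were found over 36 sums (6 mice by 6 classes that share libraries), among 7715 genes or 1 more with a mean of at least 20 CPM, by Pearson's r of log2(CPM + 1). They are given as a description. For Epas1 these were Plxnd1, a semaphorin receptor, Utrn and Npdc1, with r of 0.99, 0.99 and 0.98. For Pfkfb3 they were Fnip1, Tsc22d2 and Jpt1 (0.96, 0.95 and 0.94), and for Ldha Snrpg, Gpx4 and Ybx3 (0.96, 0.95 and 0.94). Adm was most like the endothelial genes Slc22a8, Emcn and Rgcc (0.93, 0.93 and 0.93), and Ankrd37 most like Tmem238, BC028528 and Sypl (0.92, 0.91 and 0.90). Pdk1 was most like Syvn1, Npc1 and Ccng2 (0.89, 0.88 and 0.87) and Bnip3 most like Gm9946, Plk2 and Efr3b (0.89, 0.89 and 0.89). Hif1a (Ifrd1 and Map3k8, at 0.77 and 0.76), Pgk1 (Uqcrfs1, Pebp1 and Ndufa1, at 0.72, 0.70 and 0.70) and Egln3 (Rilpl2, Tmem219 and Tiparp, at 0.71, 0.68 and 0.67) had no such close partner.

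Among the 10 themselves, Epas1 went with Ldha over the same sums (r = 0.85) and against Pfkfb3 (−0.85), and Pfkfb3 went with Pdk1 (0.62) and against Ldha (−0.71). Adm went with Ldha (0.77) and with Ankrd37 (0.65). Hif1a and Epas1 were related at −0.32. These values mostly hold the contrast of microglia with vascular cells.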
